A study of Mus musculus with 14 samples.

Results

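The genes described here are the 33 mouse genes that encode Wnt ligands, Frizzled receptors and R-spondins, namely 19 Wnt, 10 Frizzled and 4 R-spondin genes. They were chosen by name, all 33 were found in the GENCODE annotation, and they are set beside the 21938 protein-coding genes of the chromosomes, of which they are a part. H3K4me1, the monomethylation of lysine 4 of histone H3 that marks enhancers and the borders of promoters, was measured by ChIP-seq in immortalized mouse embryonic fibroblasts (iMEF). In the cells used, a single clone, the endogenous Ash2l gene was inactivated and replaced by lentiviral human ASH2L with an FKBP12 degron tag, so that dTAG-13 leads to the breakdown of the protein. ASH2L is a core subunit of the complexes that methylate lysine 4 of histone H3. All groups share this genotype and differ in time with dTAG: a control without dTAG and 0.5, 2, 4, 8 and 16 h of dTAG, each in 2 replicates, which gives 12 ChIP libraries, plus an input of the control and one of the 16 h time point. The table analysed here is 1 joint list of 160144 H3K4me1 sites for all these samples, each given by its chromosome, start and end. It has no value for any library, and the study's list of sites changed at each time point was not analysed here. No replicate, time point or read count stands behind any number given here, no test across samples was possible, and no change after loss of ASH2L can be read from it. A site may stem from any of these libraries and need not be present in cells without dTAG. The paper reports that gains of H3K4me1 after dTAG lay nearly all at promoters. Whether the promoter sites described here were present without dTAG was not tested.

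Wnt ligands are secreted, lipid-modified glycoproteins that bind Frizzled receptors, which cross the membrane several times, and the co-receptors Lrp5 and Lrp6. In the canonical branch this keeps β-catenin, encoded by Ctnnb1, from degradation, so that it enters the nucleus and acts with TCF/LEF factors. R-spondins raise the number of Frizzled receptors at the surface by binding Lgr receptors and the ubiquitin ligases Znrf3 and Rnf43, which otherwise remove Frizzled proteins. Fibroblasts both secrete and receive these signals, and many of the genes are known as developmental regulators with CpG-rich promoters.

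The promoters of these genes differed in CpG content and in whether a site lay over them, and 4 of them are shown as examples of each combination, picked after their values were known. They are the 250 bases before the RefSeq start of the gene (GRCm38.p6, 5′ to 3′ on the strand of the gene), with each CG pair in capitals. Wnt1 has a CpG island and a site over all 250 bases, Wnt16 has no island but a site over all 250 bases, Rspo4 has an island and no site, and Wnt8b has neither. They hold 23, 9, 24 and 5 CG pairs, in this order, against a median of 6 in the 32851 promoters of the RefSeq table and of 23.5 in the 26 promoters of it that belong to 23 of the 33 genes.
Wnt1, chr15:98789607-98789856, plus strand: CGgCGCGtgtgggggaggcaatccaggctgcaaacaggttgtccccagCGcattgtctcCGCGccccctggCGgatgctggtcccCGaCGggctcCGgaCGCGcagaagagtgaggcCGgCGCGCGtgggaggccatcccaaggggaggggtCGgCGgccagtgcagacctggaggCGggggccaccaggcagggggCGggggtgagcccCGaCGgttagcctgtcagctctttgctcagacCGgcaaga
Wnt16, chr6:22287977-22288226, plus strand: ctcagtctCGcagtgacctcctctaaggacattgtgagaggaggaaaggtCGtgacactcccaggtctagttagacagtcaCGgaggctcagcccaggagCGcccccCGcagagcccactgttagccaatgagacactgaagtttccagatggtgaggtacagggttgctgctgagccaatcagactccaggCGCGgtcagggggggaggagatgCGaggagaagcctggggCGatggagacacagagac
Rspo4, chr2:151842677-151842926, plus strand: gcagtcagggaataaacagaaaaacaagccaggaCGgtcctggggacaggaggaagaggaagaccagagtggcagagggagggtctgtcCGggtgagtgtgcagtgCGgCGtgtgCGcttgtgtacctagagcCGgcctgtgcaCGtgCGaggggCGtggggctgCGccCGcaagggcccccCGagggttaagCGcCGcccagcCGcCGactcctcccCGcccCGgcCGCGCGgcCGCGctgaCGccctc
Wnt8b, chr19:44493222-44493471, plus strand: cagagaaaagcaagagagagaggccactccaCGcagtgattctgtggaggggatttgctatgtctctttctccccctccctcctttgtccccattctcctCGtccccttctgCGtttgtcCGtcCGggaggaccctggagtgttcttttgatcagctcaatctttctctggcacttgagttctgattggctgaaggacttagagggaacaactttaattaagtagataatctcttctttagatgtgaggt

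In the same 250 bases, the word GGGCGG, read on both strands and known as the GC box of Sp1-type factors, was present in 19 of the 26 member promoters of the table (73.1%) and in 32.7% of all its promoters. The word itself holds a CG pair, and the member promoters held a median of 23.5 CG pairs, against 6. No share was computed for promoters of like CG content. At some genes part of these bases is exon by GENCODE, up to all 250 at Fzd10. A match describes these letters alone. The word was found in the Wnt1 and Rspo4 promoters and not in those of Wnt16 and Wnt8b.

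A promoter was defined as the 1 kb on either side of the most upstream annotated TSS, with at least 1 bp inside a site. By this measure 28 of the 33 genes (84.8%, 95% Wilson interval 69.1 to 93.3%) had a promoter site, against 63.9% of all protein-coding genes. They were 17 of 19 Wnt genes, 8 of 10 Frizzled genes and 3 of 4 R-spondin genes. The 5 genes without one were Wnt8a, Wnt8b, Fzd6, Fzd10 and Rspo4. CpG islands, stretches dense in CG pairs, reached into the promoter window of 30 of the 33 genes (90.9%), against 53.8% of all protein-coding genes. Of the 30, 27 had a promoter site (90%, 95% Wilson interval 74.4 to 96.5%), close to the 93.0% of all protein-coding genes with an island. Of the 3 without an island, Wnt16 had a site and Wnt8a and Wnt8b did not, where 30.0% of all protein-coding genes without an island had one. Among genes with an island, the members' share thus differed from that of all protein-coding genes by less than its counting interval. The intervals cover the counting of genes alone, and neighbouring genes share sites.

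**Figure D1:**
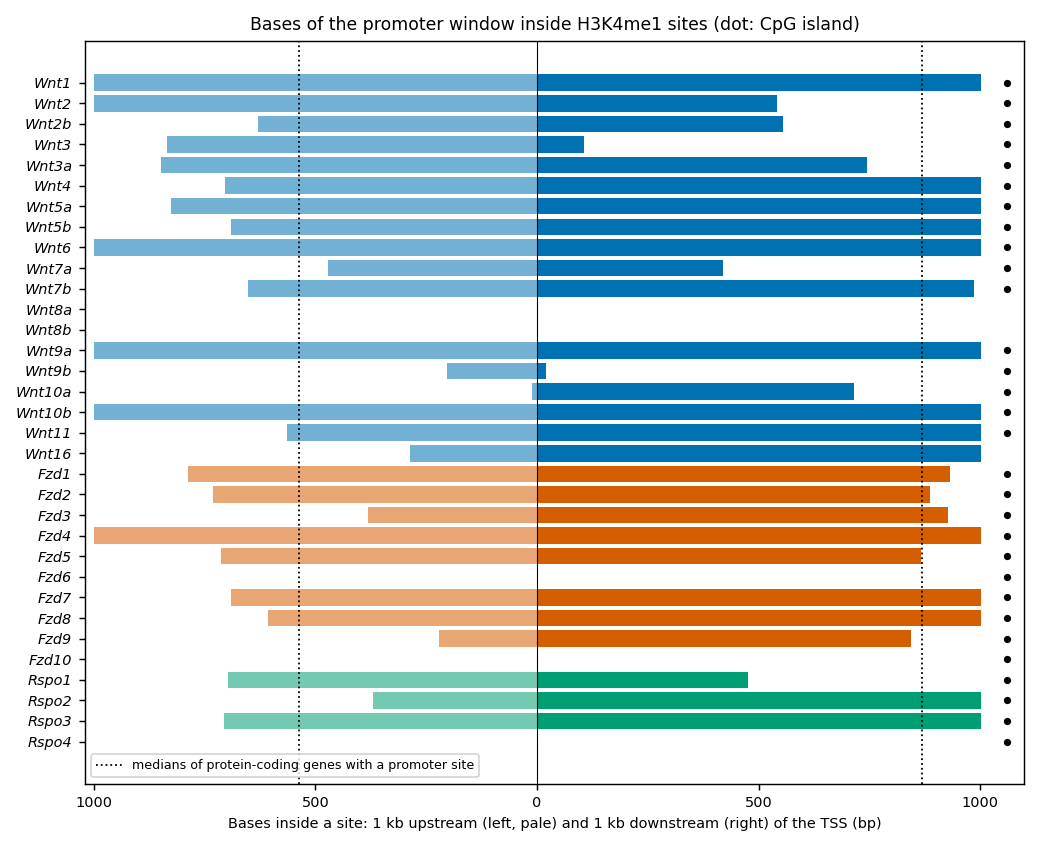
Bases of the promoter window inside an H3K4me1 site, for the 1 kb upstream (left, pale) and the 1 kb downstream (right) of the most upstream TSS of each of the 33 genes, in bp; dots mark genes with a CpG island in the window, and dotted lines the medians of protein-coding genes with a promoter site (538 bp upstream and 868 bp downstream). Wnt1, Wnt6, Wnt9a, Wnt10b and Fzd4 fill the whole window of 2001 bp, and Wnt8a, Wnt8b, Fzd6, Fzd10 and Rspo4 have no base inside a site.

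The promoter sites lay over the TSS in most Wnt genes and beside it in many Frizzled genes. The TSS itself was inside a site in 22 of the 33 genes (66.7%, interval 49.6 to 80.2%), against 39.5% of all protein-coding genes. These were 16 of 19 Wnt genes (84.2%, interval 62.4 to 94.5%), 3 of 10 Frizzled genes (30.0%, interval 10.8 to 60.3%) and 3 of 4 R-spondin genes. In protein-coding genes with an island, the 100 bp before and after the TSS were covered at 55.4% and 62.2%. Both values lie inside the interval of the 33 genes and below that of the Wnt genes. For the Frizzled genes 55.4% lies inside the interval and 62.2% above it. These 2 values are mean shares of 100 bp and not shares of genes with the TSS inside a site. Sites on both sides of a TSS that was itself free occurred in 6 of the 33 genes (18.2%), against 13.7% of all protein-coding genes. One of the 6 was Wnt7b, and the other 5 were Fzd1, Fzd2, Fzd3, Fzd5 and Fzd9. No gene had sites on 1 side only with the TSS free, an arrangement of 1.96% (upstream) and 8.69% (downstream) of all protein-coding genes. The difference between the families was not tested, since genes are not replicates and the set has no replicates of its own. The intervals of their shares are no such test. The Frizzled share counts Fzd6 and Fzd10, which had no site in the gene or the 50 kb on either side.

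**Figure D2:**
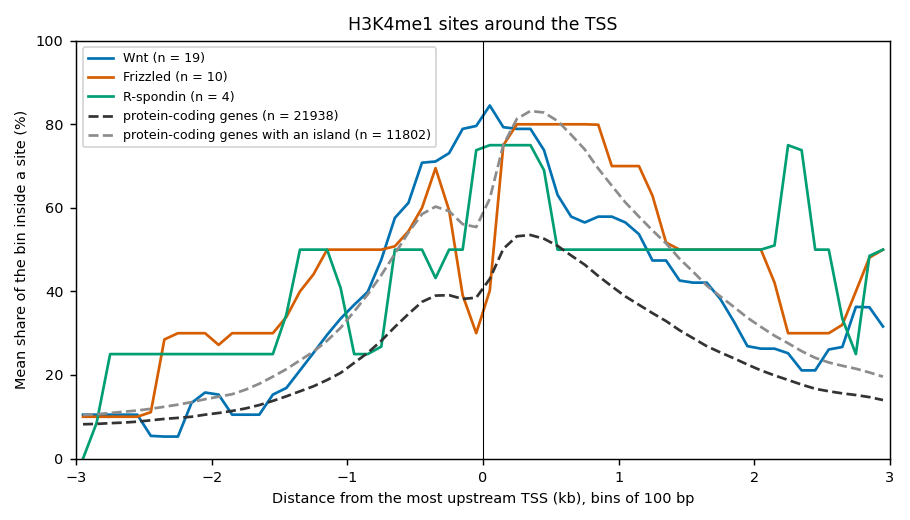
Mean share of each 100 bp bin inside a site, in percent, from 3 kb upstream to 3 kb downstream of the most upstream TSS in the direction of transcription, for the Wnt, Frizzled and R-spondin genes and for protein-coding genes with and without regard to CpG islands. In the bin just upstream of the TSS the Frizzled line falls to 30.0% and the Wnt line stands at 79.6%, against 38.5% of protein-coding genes and 55.4% of those with an island.

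In bins of 100 bp, the Wnt genes were covered most in the first bin downstream of the TSS, at 84.5%. Protein-coding genes with an island were at 62.2% there. Further downstream, in the bins from 300 and 500 bp, the line of all 19 Wnt genes was the lower one. In the bin from 300 bp, genes with an island were at their maximum of 83.2%, against 78.9% of the Wnt genes. From 500 bp the values were 80.8% and 63.1%. Only 16 of the 19 Wnt genes have an island, and no line was computed for these alone. The values thus set unlike genes side by side, and whether the order holds among genes with an island was not tested. The Frizzled genes had a maximum on either side, 69.5% in the bin from 400 bp upstream and 80.0% from 200 bp downstream, with 30.0% in the last bin before the TSS. Protein-coding genes with an island had the same kind of dip, but a shallower one, from 60.3% to 55.4%. The R-spondin line rests on 4 genes, and 1 gene moves it by up to 25 percentage points.

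Among the Wnt genes, Wnt1, a ligand known for its part in midbrain development and mammary tumours, lay under a site of 4459 bp that reached from -1076 bp relative to its TSS into the gene and covered 85.0% of the gene (chr15:98789857-98793837). This share was higher than in 98.3% of protein-coding genes. Its neighbour Wnt10b (chr15:98770712-98778150), a ligand that favours bone over fat cells, lay under a site of 6281 bp, which began at -3213 bp, and 52.1% of the gene was inside sites. The TSSs of Wnt1 and Wnt10b point away from each other, and 36.6% of the 11706 bp between the genes was inside the same 2 sites that reached into the promoters.

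Wnt5a, the best known ligand of the branch that does not use β-catenin and a product of many mesenchymal cells, had the widest site at any of the 33 genes. This site of 8063 bp began 825 bp before the most upstream TSS and took in all 6 annotated TSSs, the last of them 6701 bp downstream (gene at chr14:28504750-28527448). Wnt5b (chr6:119432531-119544347), its close relative, had 22 sites over 111817 bp, covering 26.9% of the gene. Each of the 4 annotated TSSs of Wnt5b, including those 77136 and 94961 bp downstream of the first, had a site within 1 kb. Of the 73 annotated TSSs of the 33 genes, 57 had a site within 1 kb.

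Wnt9a and Wnt3a, both ligands of the canonical branch with roles in the skeleton and the early axis, are also divergent neighbours. Wnt9a had a site of 4167 bp over the whole window, while at Wnt3a 3 separate sites of 1534, 957 and 291 bp covered 1593 bp of it. Between the genes lay 5 sites over 29.9% of 16175 bp. Wnt6 (chr1:74771892-74785322) had a site of 2987 bp over the whole window, and Wnt10a, its neighbour on the same strand, a site of 727 bp that began 12 bp before its TSS. Of the 6193 bp between them, 4.81% was inside sites. The pair Wnt9b and Wnt3, again divergent, had narrower sites: 222 bp at the promoter of Wnt9b, a ligand of kidney development, and 940 bp at that of Wnt3, which is needed for gastrulation. Between them 6.42% of 24328 bp was inside sites. The share of sites between neighbours thus ranged from 4.81% to 36.6%, and the 3 divergent pairs spanned most of this range.

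The other Wnt genes with a promoter site had between 891 bp (Wnt7a, a ligand of limb and nervous system) and 1826 bp (Wnt5a) of the window inside sites, if those with the whole window are set aside together with Wnt3, Wnt9b and Wnt10a. Wnt4, a ligand of kidney and gonad development, had 1705 bp and 6 sites over the gene. Wnt11, a ligand of convergent movements, had 1564 bp, and Wnt2, Wnt2b and Wnt16 had 1542, 1185 and 1287 bp. Wnt2b differed from the others in having its widest site, of 6795 bp, at the end of the gene, from 15298 bp downstream of the TSS to beyond the annotated end.

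Wnt8a (chr18:34542313-34548273) and Wnt8b (chr19:44493472-44514273), ligands of the early embryo and the forebrain, had no site in the promoter and no island. At Wnt8a the nearest site was 3016 bp from the TSS, and a site of 1466 bp lay over the last part of the gene, so that 24.6% of the gene was covered. At Wnt8b the nearest site, of 803 bp, was 18008 bp away inside the gene. A site thus lay over the gene body of all 19 Wnt genes, though at Wnt9b this was only the 20 bp of the promoter site that reach past the TSS.

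Among the receptors, 5 Frizzled genes had the same arrangement of a pair of sites around a free TSS. The free stretch was 209 bp at Fzd3, 230 bp at Fzd9, 281 bp at Fzd1, 384 bp at Fzd2 and 422 bp at Fzd5, and 364 bp at Wnt7b, the only ligand with it. In each case the downstream site began closer to the TSS, from 15 bp at Wnt7b to 135 bp at Fzd5, than the upstream site ended. At Fzd5 (chr1:64730558-64737751), known for its part in gut and eye, the downstream site of 5431 bp covered 75.5% of the gene. At Fzd2 (chr11:102604396-102608058) sites of 2116 bp upstream and 2048 bp downstream flanked the TSS and 82.8% of the gene was covered. If sites within 1 kb of each other are merged, the free stretches close and 28 of the 33 TSSs are inside a site, against 52.6% of all protein-coding genes.

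Fzd4, Fzd7 and Fzd8 had their TSS inside a site. Fzd4 (chr7:89404355-89413134), the receptor of Norrin in retinal vessels, had a site of 2470 bp over the whole window. Fzd7 (chr1:59482424-59486955), a receptor of stem and progenitor cells, had sites of 4207 bp and 4005 bp, the second over 82.6% of the gene. Fzd8 (chr18:9212163-9218136) had a site of 3852 bp at its promoter and 58.4% of the gene inside sites, but only 3 sites in its flanks.

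Fzd6 (chr15:39006034-39038188), a receptor of planar polarity known from hair patterning, and Fzd10 (chr5:128600844-128604093) had no site in the promoter, the gene or the 50 kb on either side. They were the only 2 of the 33 (6.06%), against 13.2% of all protein-coding genes. Both have CpG islands, of 622 bp at Fzd6 and of 247 and 1765 bp at Fzd10, with no base inside a site. The site-free stretch over Fzd6 was 582.5 kb long, with the nearest site 156248 bp from the TSS, and that over Fzd10 was 1368 kb long, with the nearest site 399705 bp away. The TSSs of 6 protein-coding genes lay in the stretch of Fzd6, those of Atp6v1c1, Baalc, Cthrc1, Slc25a32, Dcaf13 and Fzd6 itself, and 5 of them have an island. Atp6v1c1 encodes a subunit of the proton pump of acidic organelles and Slc25a32 a mitochondrial folate carrier, genes in wide use. In the stretch of Fzd10 lay 5 such TSSs, those of Slc15a4, Tmem132d, Fzd10, Piwil1 and Rimbp2, and 3 had an island. These neighbours were named after their values were seen. Among the 829 protein-coding genes of chromosomes 1 to 19 and X with an island and no promoter site, the median site-free stretch was 113 kb, and 82.4% had a shorter one than Fzd6 and 92.6% a shorter one than Fzd10. Whether these stretches lack the mark or only lack sites in the table used here, which may not be complete, was not tested, and the 2 genes without any site are to be read with this limit.

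The R-spondin genes Rspo1, Rspo2 and Rspo3 had a site over the TSS and Rspo4 had none. At Rspo3 (chr10:29452416-29535867), an R-spondin of vascular development, a site of 3341 bp covered 1708 bp of the window. At Rspo1 (chr4:124986430-125009099), which acts in ovary determination, sites of 2437 and 571 bp covered 1174 bp. Rspo4 (chr2:151842927-151874668), known for its part in nail growth, had an island of 281 bp over its TSS with no base inside a site. No site lay over the gene or its upstream flank, while 13 sites over 16905 bp lay in its downstream flank, the nearest 33108 bp from the TSS. The site-free stretch over its TSS was 87.01 kb long, below the median of 113 kb for the genes with an island and no promoter site, of which 45.8% had a shorter one.

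Rspo2 (chr15:43020794-43170826, minus strand), which acts in limb and lung development, is the gene of the 4 whose promoter the study looked at as a binding site of ASH2L. Of its 2001 bp promoter window, 1371 bp were inside a site, 370 bp upstream and the full downstream side, and this site of 2765 bp (chr15:43168432-43171196) covered exon 1, intron 1, exon 2 and the start of intron 2. The island of 458 bp lay wholly inside it. The 3 annotated TSSs lie within 8 bp of each other, so the choice between them changed the covered bases by at most 8. A further site of 401 bp ended 1038 bp upstream of the TSS, just outside the window.

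Over the 150033 bp of Rspo2 lay 38 sites, the most at any of the 33 genes, and 98.3% of protein-coding genes had fewer. Per length this was 2.53 sites per 10 kb, against a median of 0.789 in the 2492 protein-coding genes of at least 100 kb, of which 95.9% had a lower density. The sites were narrow: the median width was 380 bp, against 603 bp for all sites of the set, with a range of 200 to 2765 bp, and 13 were under 300 bp. Only 11 of the 38 were at least 500 bp wide. Together they covered 12.8% of the gene, above the 0 to 10.7% of the other R-spondin genes and below the 26.9% that Wnt5b reached with 22 sites. In 10 kb steps from the TSS, coverage was highest at 38.7% from 30 to 40 kb and 38.4% in the first 10 kb. The step from 20 to 30 kb had no site, as part of the largest gap of 14445 bp.

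**Figure D3:**
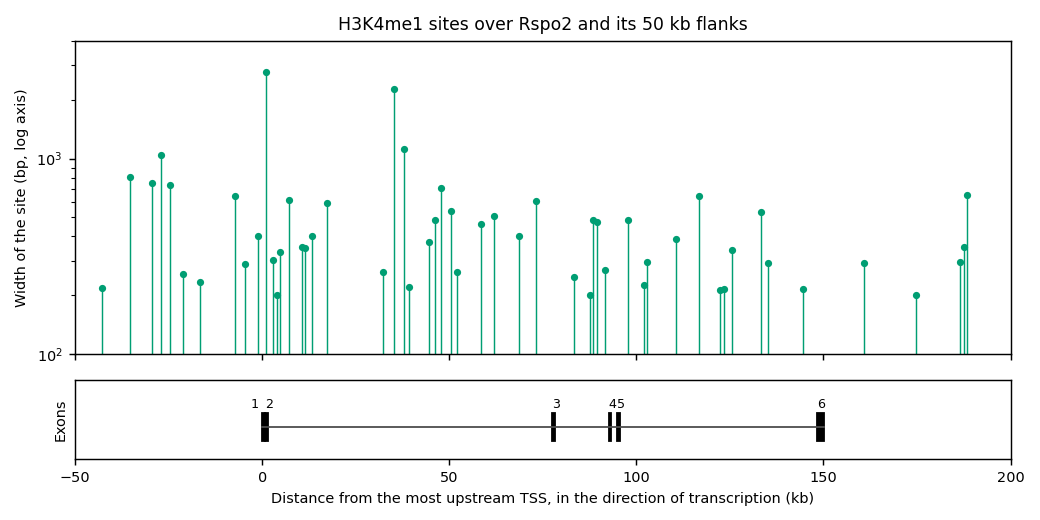
Width in bp (log axis) of each H3K4me1 site over Rspo2 and its 50 kb flanks against the distance of its centre from the most upstream TSS in kb, with exons 1 to 6 drawn as boxes below. The 3 sites of at least 1 kb in the gene lie at the TSS and between 34136 and 38359 bp downstream of it, and no site lies over exons 3 to 6.

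By part of the gene, intron 2 (76389 bp) held 21 of the 38 site centres and was covered at 16.6%. Intron 3 (14910 bp) held 5 and was covered at 11.2%, and intron 5 (53134 bp) held 11 and was covered at 7.25%. Intron 4 of 2133 bp and exons 3 to 6 held none. The widest intronic sites, of 2258 and 1125 bp (chr15:43134433-43136690 and chr15:43132467-43133591), lay beside each other from 34136 to 38359 bp downstream of the TSS. In the flanks, 11 sites lay upstream, the promoter site included, and 5 downstream.

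Sites in introns are of interest for the factors that may bind there, and 2 of the Rspo2 sites held both words searched, the AP-1 word TGANTCA, bound by Fos and Jun, and the TCF/LEF words CTTTGAT and CTTTGAA, at which β-catenin acts. Each was searched on both strands in the 200 bases at the centre of a site. The share of all sites with both words was not counted, so whether 2 of 38 is many or few is not known. The 2 sites, picked because they held both words, are shown on the minus strand, the strand of the gene, with the words in capitals. In the first, 11395 bp downstream of the TSS, a TCF/LEF word begins at base 8 and an AP-1 word at base 73, and in the second, 39138 bp downstream, they begin at bases 1 and 182, the TCF/LEF word on the opposite strand.
Rspo2 intron 2, chr15:43159156-43159355, minus strand: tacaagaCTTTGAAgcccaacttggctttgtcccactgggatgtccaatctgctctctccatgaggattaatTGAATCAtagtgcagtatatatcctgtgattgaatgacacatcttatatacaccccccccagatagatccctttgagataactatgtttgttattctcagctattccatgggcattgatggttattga
Rspo2 intron 2, chr15:43131478-43131677, minus strand: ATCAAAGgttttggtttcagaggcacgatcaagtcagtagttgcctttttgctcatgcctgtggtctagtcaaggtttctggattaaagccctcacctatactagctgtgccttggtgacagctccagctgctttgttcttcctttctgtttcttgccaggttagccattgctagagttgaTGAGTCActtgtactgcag

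Of the 38 sites over Rspo2, 6 held the AP-1 word (15.8%, 95% Wilson interval 7.44 to 30.4%) and 4 a TCF/LEF word (10.5%, interval 4.17 to 24.1%). Of the 461 distinct sites over the 33 genes and their flanks, 48 held the AP-1 word (10.4%, interval 7.94 to 13.5%), against 12.7% of all sites. A TCF/LEF word was present in 29 of the 461 (6.29%, interval 4.42 to 8.89%), against 7.01% of all sites. Both backgrounds lie inside the intervals, so neither word was seen to be more or less frequent at these genes than in the whole set, and a match is not a bound factor.

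Over the gene bodies, 30 of the 33 genes had at least 1 site (90.9%, interval 76.4 to 96.9%), against 72.8% of all protein-coding genes, the exceptions being Fzd6, Fzd10 and Rspo4. This counts promoter sites that reach into the gene. With the site centre inside the gene the count was 26, against 69.4% of all protein-coding genes. Without the first 1 kb downstream of the TSS it was 27, against 66.2%. No such share was computed for protein-coding genes with an island. The median share of the gene inside a site was 18.6%, against 6.47% in protein-coding genes. By family the median was 19.8% for Wnt, 47.6% for Frizzled and 8.16% for R-spondin genes. The families also differ in length, with medians of 22238 bp for Wnt genes and 5253 bp for Frizzled genes, so that a site at the TSS takes up a larger part of a Frizzled gene. Without the first 1 kb downstream of the TSS the median of the 33 genes was 13.3%, against 3.76% in protein-coding genes. The highest shares were those of Wnt1, Fzd2, Fzd7 and Fzd5, already given, and the lowest above 0 were 0.0891% at Wnt9b, 1.30% at Wnt2 and 2.14% at Fzd3. Of 139 sites over the gene bodies, 105 were centred in introns and 23 in exons, and the others had their centre outside the gene. Of these 139 sites, 38 lay over Rspo2 and 22 over Wnt5b, so the split describes these 2 long genes in large part.

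**Figure D4:**
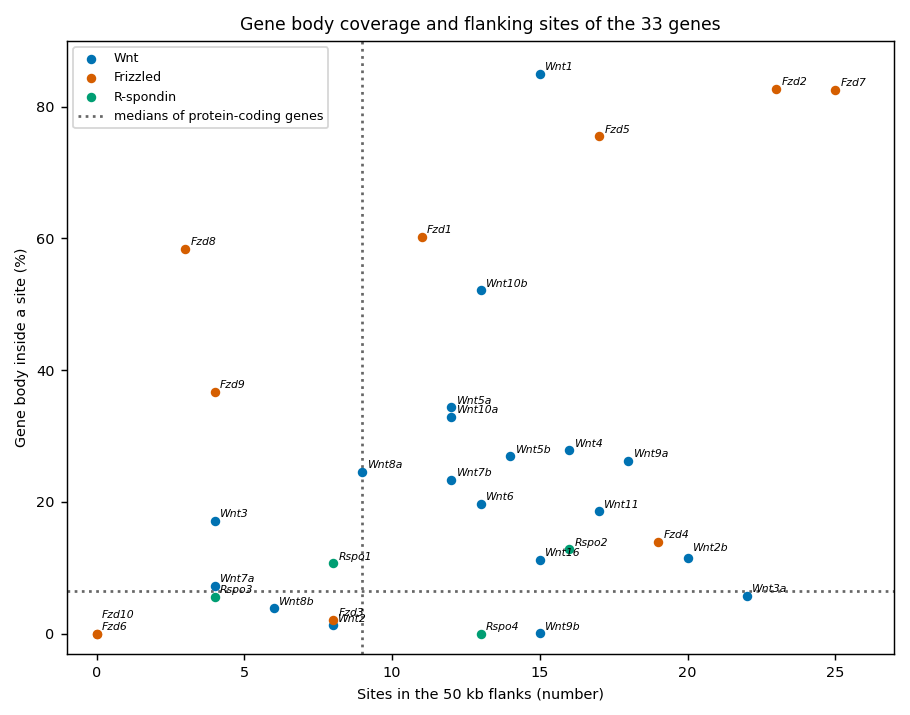
Share of the gene body inside H3K4me1 sites, in percent, against the number of sites in the 50 kb upstream and downstream together, with 1 point per gene and dotted lines at the medians of protein-coding genes (6.47% and 9 sites). Fzd2 and Fzd7 are high on both measures, Fzd8 and Fzd9 have covered gene bodies with few flanking sites, and Fzd6 and Fzd10 are at 0 on both.

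The flanks of 31 of the 33 genes (93.9%, interval 80.4 to 98.3%) held a site, against 86.0% of all protein-coding genes. The median number of sites in both flanks was 13 (95% interval 8 to 15), against 9. Both intervals take in the value of all protein-coding genes. Fzd7 had the most with 25, followed by Fzd2 with 23, Wnt3a with 22 and Wnt2b with 20. Fzd8 had 3, and Wnt3, Wnt7a, Fzd9 and Rspo3 had 4 each. The gene and its flanks together were covered at a median of 13.8%, against 7.86% in protein-coding genes, and most at Wnt10b (32.2%) and Wnt1 (32.1%), which share most of their flanks. When sites within 1 kb of a TSS of another gene were left out, the median in the flanks was 10, against 5.

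**Figure D5:**
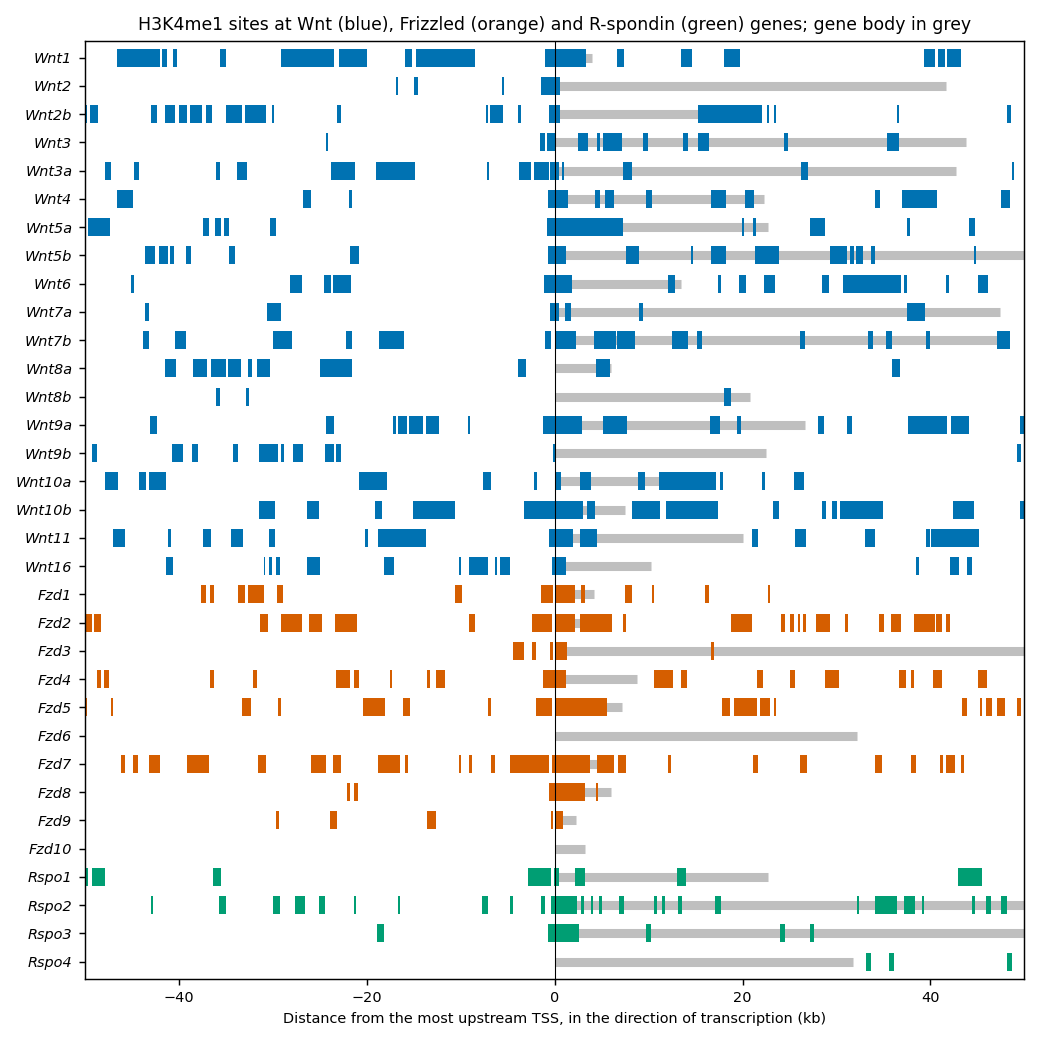
H3K4me1 sites, drawn to scale as blocks, from 50 kb upstream to 50 kb downstream of the most upstream TSS of each of the 33 genes in the direction of transcription, with the gene body in grey. Sites more than 50 kb downstream of the TSS are not drawn. The rows of Fzd6 and Fzd10 are empty, Rspo4 has sites only downstream of its gene, and the 8063 bp site at Wnt5a is the widest over a TSS.

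The sites over the promoters and gene bodies of the 33 genes, 148 in all, had a median width of 736.5 bp (95% interval 588 to 945 bp). They ranged from 200 to 8063 bp. The median of 603 bp over the whole set lies inside this interval. The 5 of at least 5 kb lay at Wnt5a, Wnt2b, Wnt10b, Wnt10a and Fzd5. That at Wnt10a, of 6146 bp, lay over the end of the gene and reached past it. The median GC content at the centre of the 148 sites was 52.2%, against 48.5% over all sites, and repeat sequence made up a median of 9.02% of them, against 12%. Rspo2 alone gave 38 of the 148 sites, with a median width of 380 bp.

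The rest of the pathway was described by a list of 53 genes. Of these, 49 (92.5%) had a promoter site, against 63.9% of all protein-coding genes. As 46 of the 53 have an island, the share is near the 93.0% of protein-coding genes with an island. All members had one among the 2 genes for Wnt secretion (Wls, the carrier of Wnt proteins, and Porcn, which attaches the lipid), the 6 co-receptors and other Wnt receptors, the 5 R-spondin receptors and ligases, the 2 antagonist co-receptors, the 8 nuclear genes and the 7 feedback and target genes. Among secreted antagonists, which hold ligands or co-receptors away from signalling, 10 of 13 had one, and the exceptions were Dkk4 and Sost, both inhibitors of Lrp5 and Lrp6, and Sfrp5, a soluble relative of the receptors. In signal transduction 9 of 10 had one, and the exception was Ctnnb1, with the nearest site 1654 bp from its most upstream TSS, 10 sites over the gene and 37.7% of it covered. The genes of the list with more sites over the gene than Rspo2 were Ror1 with 54, Tcf7l2 with 49, Lrp6 with 42 and Ror2 with 41. Ror1 and Ror2 are receptors of Wnt5a, and Tcf7l2 is a TCF/LEF factor. The TSS was inside a site in 36 of the 53 genes, against 39.5% of all protein-coding genes. In protein-coding genes with an island, the 100 bp before and after the TSS were covered at 55.4% and 62.2%. The median share of the gene covered was 13.9% in the 53 genes, against 6.47% in all protein-coding genes.

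Of the markers listed to check the cell type, 9 of 10 for fibroblasts had a promoter site, the exception being Col3a1, and so did 12 of 22 for other cell types (54.5%), where the share of all protein-coding genes was 63.9%. By type, the 12 with a promoter site were 5 of 5 epithelial, 0 of 5 blood, 3 of 4 endothelial, 3 of 5 neural and 1 of 3 pluripotent markers. An island was present at 5 of the 10 and at 9 of the 22, by type at 4, 0, 1, 3 and 1 in the same order. All 5 epithelial genes, Epcam, Cdh1, Krt8, Krt18 and Cldn4, thus had a site in a cell labelled as a fibroblast. A site shows the place of the mark and not the activity of the gene, and the part of other cell types in the sites of the 33 genes was not tested.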

How the data were processed

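H3K4me1 ChIP-seq was performed on iMEF cells in 6 conditions with 2 replicates each, plus 2 inputs. The authors trimmed the reads, aligned them with BWA to mm10, filtered them with samtools, joined the replicates by Picard and used Macs for broad peaks, and versions and thresholds are not given in the sources used here. The deposited positions are the start and end of each peak of 1 set over all samples, so depth per sample cannot be read from them. A minimum of raw reads per ChIP sample, which the methods state, was not used here. They were converted to coordinates counted from 1.

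Python 3.11.15 was used with pandas 2.3.3, numpy 2.4.6, scipy 1.17.1 and numba 0.67.0 to overlay sites on GENCODE M21 genes and the GRCm38.p6 sequence, and matplotlib 3.10.9 for figures. A site that reached over a gene end was counted in the gene body and in the flank. All site ends fell within the chromosomes. The 36 sites on scaffolds were left out. Islands were called on repeat-masked sequence (17 for each CpG, -1 for any further base), with over 200 bp, at least 50% GC and an observed to expected ratio over 0.6. The functions were tested on simulated data and equalled a direct count in 100% of 400 queries, and 48 of 50 planted islands were found within 60 bp. The members and gene lists were chosen with earlier results of these data known. Named genes were all 33 members and, of the other pathway genes, those without a promoter site where they were the minority of their group. Wls, Porcn, Lrp6, Ror1, Ror2, Tcf7l2, the epithelial markers, the genes without a site near Fzd6 and Fzd10 and the genes whose sequence is shown were picked after their values were seen.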

Additional observations from a re-analysis of the deposited data

How the results depend on the processing

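No paired analysis was possible because the set has no value per library, and for the same reason no replicate could be left out. Of 39 alternatives to 11 results, 32 gave a count within 1.5 times the reported one, a share or median inside its 95% interval or, for the covered bases of the Rspo2 promoter, the same value. Counts of genes cannot pass 33, so few alternatives could leave the limit of 1.5 times, and the 32 are no measure of robustness. With merged sites the count of TSSs inside a site rose from 22 to 28 and still fell within this limit. The count of genes with a promoter site ranged from 26 (RefSeq gene starts) to 28. The median number of flanking sites was 6 with 25 kb flanks and 22 with 100 kb flanks, against 4 and 17 in protein-coding genes. The number of Rspo2 gene body sites was 11 with sites of at least 500 bp only. With sites within 1 kb merged and the gaps counted, the whole Rspo2 promoter window of 2001 bp was covered, and the median width of member sites was 1112 bp, against 866 bp over all merged sites. In 500 bp windows the AP-1 word was in 26.2% of member sites, against 27.5% of all sites, and a TCF/LEF word in 16.7%, against 17.3%. Wider windows hold more words and wider flanks more sites by construction. Depth, which limits what a peak caller finds, is not in the table for any library, and the table may not be complete, so absence of a site at Fzd6, Fzd10, Rspo4, Wnt8a or Wnt8b does not show absence of the mark.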
